A study of Mus musculus with 5 samples.

Results

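The stretch described here is 470 kb of mouse chromosome 17, from position 12230000 to 12699999 in the numbering of the array files. It follows directly on a run of windows with strong signal in Airn, and by its numbers alone it falls inside the Thp deletion. Its members were chosen by position and not by any measured value. The stretch held 961 of the 387986 chromosome 17 probes of the array, and 37 of its 94 windows of 5 kb had at least 8 probes and were tested, out of 15383 tested windows on the chromosome. A further 12 windows had 1 to 7 probes and 45 had none, because 10 gaps of over 5 kb interrupt the probes, the longest of 66.1 kb (12279457 to 12345564).

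RNA of spontaneously immortalised mouse embryo fibroblasts, from embryos of 12.5 dpc and strain FVBN, was read on 5 tiling arrays. The groups were total RNA of the line MEFF (genotype Thp/+, n = 2), polyA RNA of MEFF (Thp/+, n = 2) and polyA RNA of the line MEFB (+/Thp, n = 1; the labels also write MEFB1). Thp is a deletion whose ends the labels put near T, at 8.6 Mb of mm9, and near Sod2, at least 4.6 Mb further on, with the imprinted Igf2r cluster of 400 kb inside it. Both lines carry it on 1 chromosome, on opposite parental copies, and there was no line without it. Double-stranded cDNA (Cy3) was hybridised with sonicated genomic DNA of the same line, called the input (Cy5). Such cDNA keeps no strand, and the dyes were the same way round on all 5 arrays. Each genotype is 1 cell line, so line and parental copy cannot be told apart. The array reads chromosome 17 alone, and the fibroblast identity of the lines was not checked on it.

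Imprinted genes are transcribed from the copy of one parent and silenced on the other. In the Igf2r cluster, the long noncoding RNA Airn is transcribed from the paternal copy, antisense to Igf2r, which encodes the receptor that clears insulin-like growth factor 2 and is expressed from the maternal copy. The cluster also holds the transporter genes Slc22a2 and Slc22a3. A line that has lost the paternal copy of this interval can therefore not make Airn, and a line that has lost the maternal copy can not make Igf2r.

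The label of the stretch as a distal piece of this cluster was checked by placing the probes on the reference sequence NCBIM37, which is the mm9 build. The input signal of a probe depends on its bases, so blocks of probes were shifted along the reference until the input predicted from the sequence matched best. No cDNA value entered. With the mean input of 5 arrays and blocks of 50 kb, 0 of 4 blocks of the stretch met the rule for placing, a best correlation at least 1.3 times the next and a neighbour within 2000 bases. With the input of MEFF polyA array 1 alone, 1 of 4 met it, at 12380000 to 12429999, with a shift of 1448615 bases. With the input of each other array alone, 0 of 4 met it. Their best shifts for this block were -713834 and 382340 (MEFF total RNA), -965715 (MEFF polyA array 2) and 435263 (MEFB). Blocks of 25 kb, 60 bases per probe and the whole stretch as 1 block also placed none. Base weights trained on other blocks of the chromosome, a choice made after seeing the data, placed 13 of 49 overlapping blocks of 25 kb. They used the input of MEFF polyA array 1. The neighbour asked for could here overlap the block and share probes with it. In the first procedure neighbours adjoined without overlap, so the rule asked less here. The best correlations of the 13 blocks were 0.50 to 0.72 across probes, which are not independent, and 1.31 to 1.60 times the next best.

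The placed blocks went against the label. They covered 25 of the 37 tested windows and 707 probes, and each of these windows started between 0.462 and 0.697 Mb beyond the distal end that the labels give for the deletion, near Sod2 (chr17:13200705-13210985). The windows from 12355000 to 12454999 fell at chr17:13803941-13902198 of NCBIM37, and those from 12635000 to 12659999 at chr17:13661916-13686915. The order of both pieces along the reference was thus the reverse of their order in the files. The blocks that placed the second piece all overlap one another. Of 12 genes between Slc22a3 and Sod2 looked up in the GENCODE vM1 annotation (Slc22a2, Slc22a3, Igf2r, Airn, Mas1, Pnldc1, Mrpl18, Tcp1, Acat2, Acat3, Wtap and Sod2), 0 lay in the placed windows. The other 12 tested windows were not placed. The last block placed before the stretch, 12190000 to 12214999, fell at chr17:12973533-12998532, inside the labelled deletion and within annotated Airn (chr17:12934177-13052988), at a shift of 783533 bases. The windows are therefore named by position below, and not as part of the imprinted cluster.

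The annotated genes in the placed windows were Tcte2 (t-complex-associated testis expressed 2, minus strand, chr17:13675419-13898832), Mllt4 (plus strand, chr17:13897546-14043157) and the noncoding Gm16046 (chr17:13812667-13820523), Gm16049 and Gm16052, with a U6 copy. Mllt4, which RefSeq names Afdn, encodes afadin, a scaffold that ties adherens junctions to the actin cytoskeleton. Tcte2 and Mllt4 overlap at their 5′ ends in the window from 12450000, so that each start lies inside the other gene. The promoter sequences of both genes are shown because all 4 MEFF arrays stood above their medians at this pair of starts. They are RefSeq sequences of build GRCm38.p6, 250 bases before to 50 after the start, on the strand of the gene. Capitals mark the GC box GGGCGG, searched as GGGCGG and CCGCCC so that both strands were read.
Afdn, chr17:13760291-13760590, plus strand: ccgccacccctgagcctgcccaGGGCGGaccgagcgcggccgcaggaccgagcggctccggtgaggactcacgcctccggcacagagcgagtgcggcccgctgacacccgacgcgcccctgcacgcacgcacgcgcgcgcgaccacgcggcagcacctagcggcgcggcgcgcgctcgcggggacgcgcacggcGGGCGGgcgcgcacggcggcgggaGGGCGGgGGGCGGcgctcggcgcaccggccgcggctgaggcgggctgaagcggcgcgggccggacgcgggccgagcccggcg
Tcte2, chr17:13761354-13761653, minus strand: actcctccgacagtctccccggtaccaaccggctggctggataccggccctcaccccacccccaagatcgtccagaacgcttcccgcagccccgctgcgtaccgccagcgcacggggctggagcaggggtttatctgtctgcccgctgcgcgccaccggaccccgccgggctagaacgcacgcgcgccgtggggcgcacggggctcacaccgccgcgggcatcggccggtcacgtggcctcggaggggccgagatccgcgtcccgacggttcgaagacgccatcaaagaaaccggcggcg
The Afdn promoter held 4 GC boxes and the Tcte2 promoter 0, where 35.7% of 32851 mouse promoters of this length held at least 1. The CpG dinucleotide occurred 62 times in the Afdn promoter and 42 times in the Tcte2 promoter, against a median of 7 over all promoters. Of all promoters, 11.68% held 30 or more.

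Transcription was low over most of the stretch. A level is the mean log2(cDNA/input) of a window's probes, with the median of the array set to 0. The mean level over the 37 windows was 0.032 and 0.025 for total RNA of MEFF, 0.045 and 0.16 for its polyA RNA, and -0.16 for MEFB. On the other windows of the chromosome the means lay between -0.043 and 0.042. In the 80 kb run just before the stretch, from 12150000 to 12229999, the levels were 2.07, 2.03, 1.83 and 2.86 on the MEFF arrays and 0.055 on the MEFB array. In every tested window of the stretch, each MEFF array stood below its own mean in that run.

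A window was called high for a group when it was at or above the 90th percentile of all windows on each array of the group. In MEFF total RNA, 3 of 37 windows were high, beside 9.20% of all windows. In MEFF polyA RNA 4 were high, beside 8.90%, and in MEFB polyA RNA 1, beside 10%. On all 5 arrays together 0 windows were high, beside 5.84%. These shares were near or below those of the chromosome. The windows concerned started at 12275000, 12450000, 12455000, 12650000 and 12655000, so signal rose at 3 places. Leaving out the brightest probe of each of these windows, a choice made after seeing the data, left 2 high windows in MEFF total RNA, 2 in its polyA RNA and 0 in MEFB. The window from 12275000 was then no longer high in either RNA of MEFF, that from 12450000 no longer in its polyA RNA, and that from 12455000 no longer in MEFB.

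**Figure D1:**
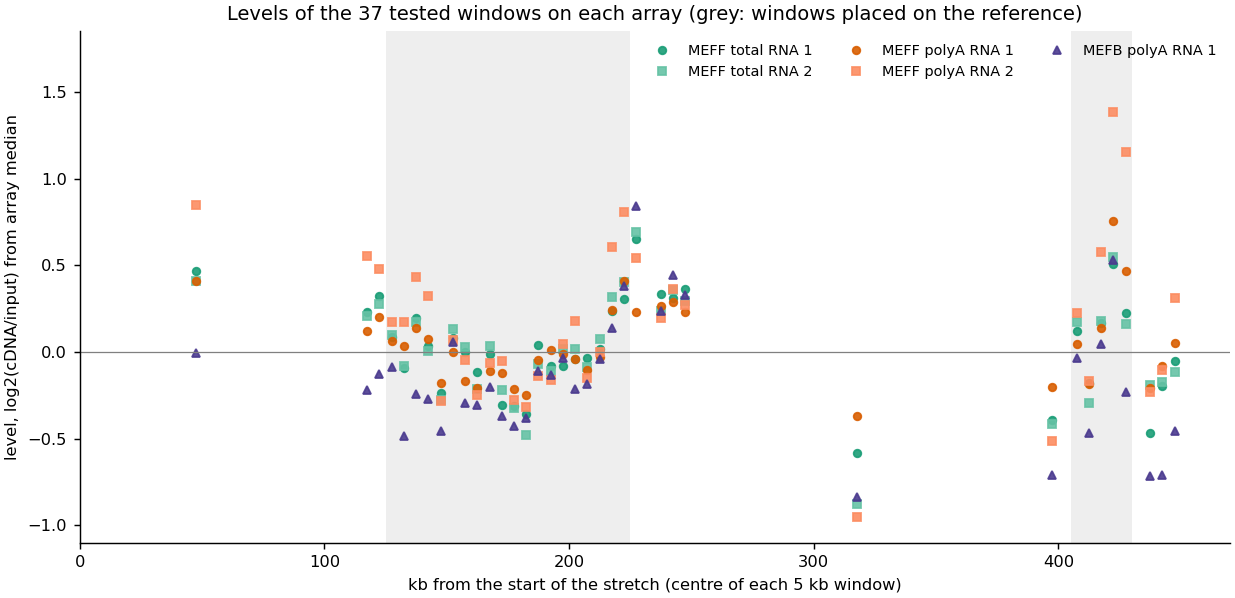
Level of each of the 37 tested 5 kb windows on each of the 5 arrays (points), against the distance from the start of the stretch in kb, with the windows placed on NCBIM37 in grey. The signal rises near 45, 220 and 420 kb, and the MEFB array (triangles) lies below all 4 MEFF arrays in 25 of the 37 windows.

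The first place lies just past the Airn run. Between 12230382 and 12260402 there was no probe, and 6 probes at 12260402 to 12261407 then stood out. Their mean level was 1.27 and 1.26 for total RNA of MEFF, 2.04 and 3.46 for its polyA RNA, and 0.54 for MEFB. All 4 MEFF arrays were thus well above their array medians, and MEFB lay below each of them. Of the 6 probes, 4 were lower in MEFB than on every MEFF array, while 2 stood above 2 in MEFB (2.53 at 12260402 and 3.07 at 12260729). With 6 probes this window was not tested.

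The next tested window, 12275000 to 12279999 with 25 probes, had levels of 0.47 and 0.41 for total RNA of MEFF, 0.41 and 0.85 for its polyA RNA, and -0.003 for MEFB. It stood between the 90.1 and 91.9 percentile on the MEFF arrays and at the 56.7 percentile on the MEFB array, without overlap. Without its brightest probe, at 12276821, the levels were 0.43 and 0.37, 0.36 and 0.77, and -0.027, and those of total RNA array 2 and polyA array 1 were under the 90th percentile of their arrays (0.38 and 0.40). The signal was uneven within this window. On the MEFF arrays the kb from 12275000 stood at 0.79, 0.85, 0.67 and 1.48 and the kb from 12276000 at 0.91, 0.93, 0.79 and 2.10. The next 3 were lower, with 0.35, 0.14, 0.22 and 0.37 from 12277000, 0.12, 0.17, 0.26 and 0.20 from 12278000, and 0.48, 0.27, 0.28 and 0.74 from 12279000. In MEFB, 1 probe at 12276464 reached 3.48 and the kb around it stood at 1.00, while the other 4 kb lay between -0.48 and -0.055. These windows were not placed. If the shift of the last block placed before them held, the annotated 3′ end of Airn (position 13052988 of NCBIM37) would fall at 12269455, between the 6 bright probes and this window. Whether it held was not tested.

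**Figure D2:**
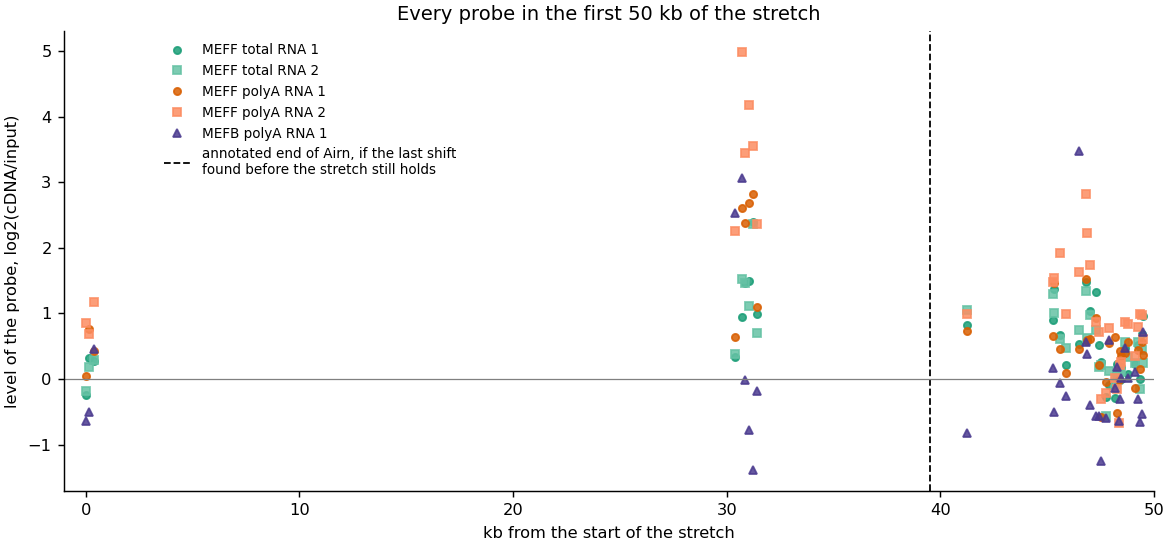
Level of every probe in the first 50 kb, on each array, against the distance from the start of the stretch in kb. The probes between 30.4 and 31.4 kb are bright on all 4 MEFF arrays, 4 of these 6 are lower on the MEFB array than on any MEFF array, and the dashed line at 39.5 kb marks where Airn would end if the last shift found before the stretch still held.

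The second place is the start of Mllt4, which by the placing lies at 12450347. In the window from 12450000, the levels were 0.31 and 0.41 in total RNA of MEFF, 0.41 and 0.81 in its polyA RNA, and 0.38 in MEFB. MEFB lay between the total RNA arrays there, and the polyA arrays of MEFF lay above them, the lower one barely (0.407 against 0.405). Probes on annotated Mllt4 exons, 7 in number, averaged 0.021 and 0.22 for total RNA of MEFF, 0.31 and 0.76 for its polyA RNA and -0.018 for MEFB. The 13 probes on its introns in the same window stood at 0.63 and 0.64, at 0.61 and 0.97, and at 0.89. Much of the signal came from 1 intron probe, at 12450647, which stood at 1.97 and 2.52, at 2.97 and 4.57, and at 3.35. Without it the 12 other intron probes averaged 0.51 and 0.48, 0.41 and 0.66, and 0.68, and the whole window 0.24 and 0.32, 0.30 and 0.65, and 0.26. Both polyA levels of the window were then under the 90th percentile of their arrays, 0.40 and 0.76. The exon probes were lower than the 12 intron probes on each array but MEFF polyA array 2. Since strand was not kept, RNA of Mllt4, Tcte2 and Gm16049 cannot be told apart where their exons overlap here.

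The window after it, from 12455000, was the brightest tested window of the stretch in total RNA and in MEFB. Its levels were 0.65 and 0.69 in total RNA of MEFF, 0.23 and 0.54 in its polyA RNA, and 0.84 in MEFB polyA RNA. Both total RNA arrays lay above both MEFF polyA arrays, without overlap, and MEFB was highest by level. By rank within each array MEFB stood lower, at the 91.6 percentile against 95.5 and 96.5 in total RNA. After normexp background correction, described below, MEFB stood at 1.55, against 2.04 and 2.09 in total RNA. The MEFB value rested in part on 1 probe, at 12457078, which stood at 3.79 in MEFB and between 0.45 and 0.67 on the MEFF arrays. Without it MEFB stood at 0.70, level with total RNA array 2 (0.69) and under the 90th percentile of its array (0.72). In the kb from 12457000 the other 4 probes averaged 0.84 and 0.78 for total RNA of MEFF, 0.30 and 0.22 for its polyA RNA, and 0.25 for MEFB, between the polyA arrays. The windows from 12465000 to 12479999 stayed between 0.20 and 0.44 on the 5 arrays, with total and polyA RNA of MEFF overlapping in 2 of these 3 windows. None of the windows from 12455000 to 12479999 was placed. If the shift of the block before them held, 0 of the 70 probes there would lie on an Mllt4 exon, and all would lie beyond its start in the direction of the gene.

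The third place lies, by the trained placing alone, at the 3′ end of Tcte2. The window from 12650000 held 9 probes with levels of 0.51 and 0.55 in total RNA of MEFF, 0.76 and 1.39 in its polyA RNA, and 0.53 in MEFB. The window from 12655000, with 25 probes, had levels of 0.23 and 0.16 in total RNA of MEFF, 0.47 and 1.16 in its polyA RNA, and -0.23 in MEFB. Both MEFF polyA arrays were highest in both windows, and MEFB was below every MEFF array only in the window from 12655000. The last exon of the transcript Tcte2-007 (chr17:13679887-13683705) is the feature beneath these windows. The annotated gene runs on past this exon, to 13675419. Its 27 probes, at 12653391 to 12656596, averaged 0.40 and 0.43 in total RNA of MEFF, 0.73 and 1.54 in its polyA RNA, and 0.19 in MEFB. The 552 probes on introns of Tcte2, over both placed pieces and including those in Gm16046 introns, averaged -0.056 and -0.063, -0.054 and 0.002, and -0.22. The 51 probes on Tcte2 exons, over both pieces, averaged 0.12 and 0.19 in total RNA of MEFF, 0.36 and 0.87 in its polyA RNA, and -0.022 in MEFB. The other 24 exon probes, without that last exon, averaged -0.20 and -0.084, -0.056 and 0.11, and -0.26. The signal above the introns thus lay over the last exon of Tcte2-007. The remaining exons lay above the introns on MEFF polyA array 2 only. That exon was singled out after seeing the data, as the feature beneath windows already called high. The lower level of the other exons therefore follows in part from this choice. Since strand was not kept, the signal cannot be assigned to this transcript.

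**Figure D3:**
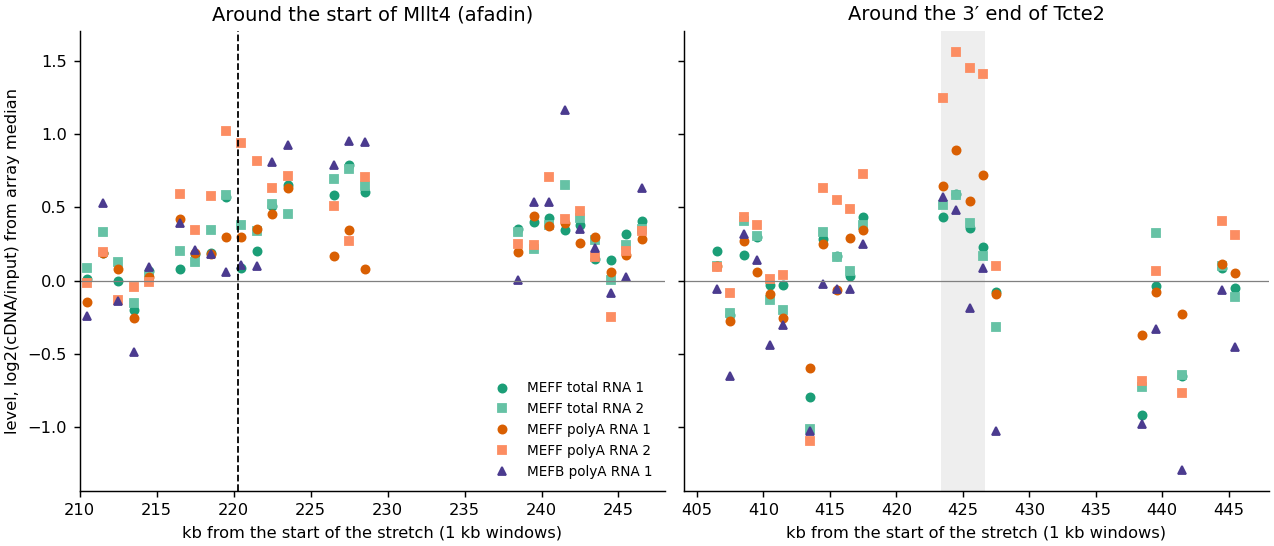
Level of 1 kb windows with at least 4 probes on each of the 5 arrays, against the distance from the start of the stretch in kb, around the start of Mllt4 (left, dashed line at 220.3 kb) and around the 3′ end of Tcte2 (right, the probes of its last exon in grey). By level, MEFB is highest from about 222 to 229 kb on the left, where its value in the kb from 12457000 rests on 1 probe. MEFF polyA array 2 is highest over the exon on the right.

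The noncoding Gm16046 spans the windows from 12360000 to 12374999. Its 38 intron probes stood at 0.25 and 0.25 in total RNA of MEFF, 0.21 and 0.59 in its polyA RNA, and -0.27 in MEFB. Its 6 exon probes averaged -0.007 and -0.14, 0.028 and 0.27, and -0.63. MEFB was below all 4 MEFF arrays in both, and no exon signal above the introns was seen. The piece between Gm16046 and the Mllt4 start, from 12375000 to 12444999, had no 5 kb level above 0.18 on any array.

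Total RNA of MEFF was compared with its polyA RNA, the share of RNA that carries a polyA tail. Both total RNA arrays lay above both polyA arrays in 7 of 37 windows, beside 14.2% of all windows, and below both in 10, beside 20.9%. With intensities as deposited, limma's test called 0 of the 37 windows, beside 0% of all 15383 windows, and 1 window had an unadjusted p under 0.05, beside 7.73%. After normexp background correction, which subtracts an estimated background from each channel, 1 window was higher in total RNA, beside 0.689%, and 0 were lower, beside 2.68%. After quantile normalization 1 was higher, beside 2.53%, and 2 were lower, beside 3.51%. The median difference over the 37 windows was -0.06 as deposited and -0.052 after normexp, against -0.011 and -0.10 over all windows. Total and polyA RNA were hybridised to different slide series, and the slide series cannot be told apart from the RNA type.

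The window higher in total RNA was that from 12455000, next to the Mllt4 start. Its difference was 0.29 as deposited (SE 0.13, adjusted p = 0.74, limma), 0.97 after normexp (SE 0.22, adjusted p = 0.015) and 0.51 after quantile normalization (SE 0.078, adjusted p = 0.0049). After normexp without MEFF total RNA array 1 or 2 it stayed positive, 0.99 and 0.95, but did not pass (adjusted p = 0.18 and 0.26). With the cDNA channel alone it was 0.064 (adjusted p = 0.89, limma). The part of the input channel in this difference was not tested. The windows lower in total RNA after quantile normalization were those over the last Tcte2 exon. The window from 12650000 differed by -0.55 as deposited (adjusted p = 0.67) and by -0.30 after quantile normalization (adjusted p = 0.044). The window from 12655000 differed by -0.62 (adjusted p = 0.64) and by -0.44 (adjusted p = 0.025). After normexp these were -0.59 and -0.72 and did not pass (adjusted p = 0.21 and 0.12).

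MEFB polyA RNA was then set against MEFF polyA RNA, which compares lines that kept opposite parental copies of the deleted interval. The MEFB levels lay below all 4 MEFF arrays in 25 of 37 windows, beside 27.4% of all windows, and above all 4 in 2, beside 30.9%. After normexp it lay below all 4 in 26, beside 21.5%, and by rank within each array in 29, beside 28.2%. The 2 windows where MEFB was above all 4 started at 12455000 and 12470000. By rank, at the 91.6 and 83.7 percentile, MEFB stood below both total RNA arrays in each of them. The median difference from MEFF polyA RNA was -0.22 as deposited and -0.37 after normexp, against 0.007 and -0.007 over all windows. Of the windows placed beyond the minimum extent of the labelled deletion, MEFB was below all 4 MEFF arrays in 18 of 25. Of those not placed it was so in 7 of 12, unevenly along the stretch. Before the placed windows it was so in 3 of 3, and from 12455000 to 12479999 in 0 of 4. Between the placed pieces after that it was so in 1 of 2, and after the last placed window in 3 of 3.

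The input channel also differed between the lines. The median log2 input of the probes in the 37 windows, set against the array median, was 0.051 to 0.084 on the 4 MEFF arrays and 0.19 on the MEFB array. In the windows placed at the 3′ end of Tcte2 it was 0.001 to 0.11 and 0.30. The direction was reversed from 12455000 to 12479999, at -0.14 to 0.013 on the MEFF arrays and -0.30 on the MEFB array. This part holds the 2 windows where MEFB lay above all 4 MEFF arrays. A higher input lowers the ratio by its definition, and a lower input raises it. The mean level of the cDNA channel alone was 0.34 in MEFF polyA RNA and 0.20 in MEFB. How much of the difference in ratio came from the input was not tested. With the cDNA channel alone, 0 windows passed the test, as in the ratio.

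As deposited, limma's test called 0 of the 37 windows lower or higher in MEFB, beside 0.0065% of all windows in either direction, and the lowest adjusted p was 0.12. At an unadjusted p under 0.05 there were 13, beside 15.7%. After normexp, 8 windows were lower in MEFB, beside 1.21%, and 0 were higher, beside 1.96%. After quantile normalization, 10 were lower, beside 3.11%, and 0 were higher, beside 3.69%. MEFB had a single array, assumed to vary like the others. Without MEFF total RNA array 1 or 2, 3 of the windows passed after normexp, those from 12275000, 12655000 and 12675000. The count also changed without either MEFF polyA array. Shares over all windows are not given for these fits, so they show only how the calls depend on single arrays.

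**Figure D4:**
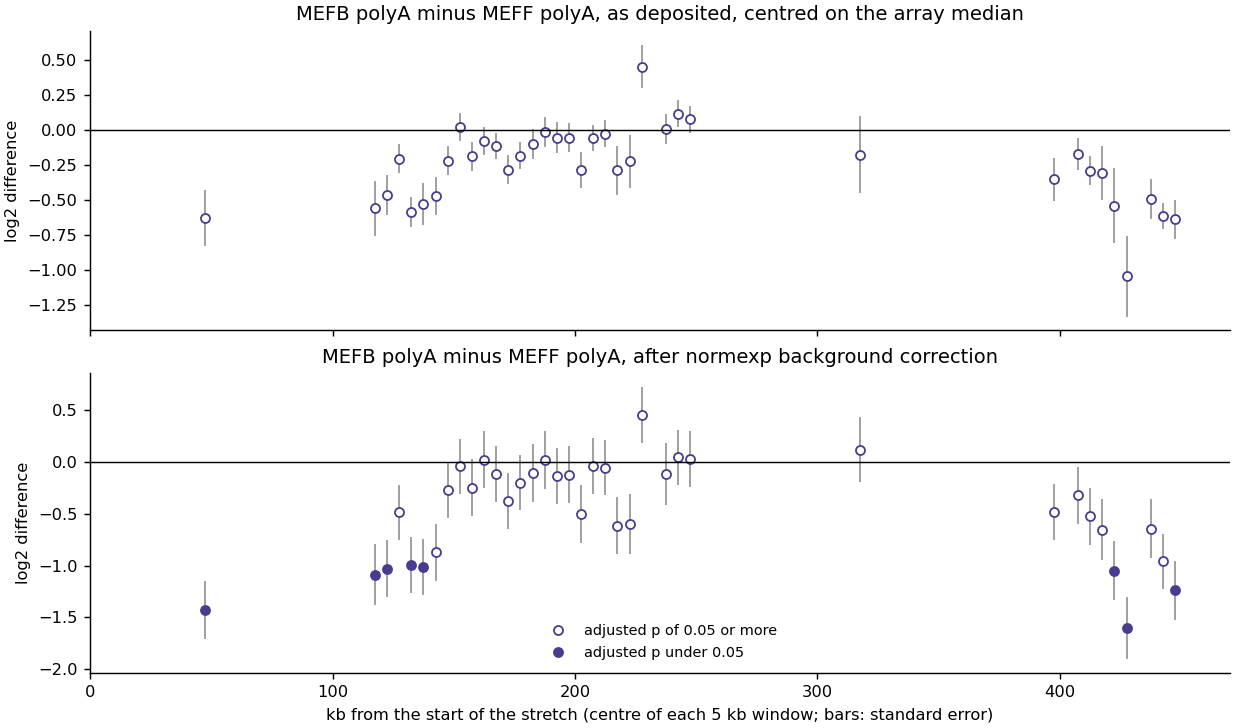
Difference of MEFB polyA RNA from MEFF polyA RNA (log2) in each 5 kb window, with its standard error from limma, against the distance from the start of the stretch in kb, as deposited (top) and after normexp (bottom). Filled points have an adjusted p under 0.05, 0 windows at the top and 8 at the bottom, and all 8 lie below 0.

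The window from 12655000, over the last exon of Tcte2, had the largest negative difference. Against 0.47 and 1.16 in MEFF, the polyA level of MEFB was -0.23, a difference of -1.05 as deposited (SE 0.29, adjusted p = 0.23, limma) and -1.61 after normexp (SE 0.30, adjusted p = 0.0026). Its neighbour from 12650000 differed by -0.54 (adjusted p = 0.40) and by -1.05 after normexp (adjusted p = 0.043). On that neighbour MEFB overlapped the total RNA arrays. The window from 12675000, not placed, stood at 0.05 and 0.31 in MEFF polyA RNA, -0.053 and -0.11 in total RNA and -0.46 in MEFB, and differed by -1.24 after normexp (adjusted p = 0.012). The window from 12670000 had MEFB at -0.71, with all 4 MEFF arrays between -0.20 and -0.081, and passed after quantile normalization (-0.53, adjusted p = 0.0071) but not after normexp (-0.96, adjusted p = 0.051).

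The window from 12275000, past the 6 bright probes, differed by -0.63 as deposited (SE 0.20, adjusted p = 0.26), -1.43 after normexp (SE 0.28, adjusted p = 0.0041) and -0.60 after quantile normalization (adjusted p = 0.0065). Across the longest gap from it, 4 of the 5 windows from 12345000 to 12369999 were called lower after normexp. The window from 12355000 among them was not called as deposited (-0.20, adjusted p = 0.40), after normexp (-0.49, adjusted p = 0.52) or after quantile normalization (adjusted p = 0.24). In the window from 12345000 the levels were 0.23 and 0.21 in total RNA of MEFF, 0.12 and 0.56 in its polyA RNA and -0.22 in MEFB. In the window from 12350000 they were 0.32 and 0.27, 0.20 and 0.48, and -0.13. MEFB lay below every MEFF array in both, and the differences after normexp were -1.09 (adjusted p = 0.043) and -1.03 (adjusted p = 0.039). In the windows from 12360000 and 12365000, at Gm16046, MEFB stood at -0.48 and -0.24, and the differences after normexp were -0.99 (adjusted p = 0.044) and -1.01 (adjusted p = 0.040). The window from 12370000 passed after quantile normalization only (-0.40, adjusted p = 0.037). Of these, the windows from 12360000 to 12374999 were placed beyond the minimum distal end of the labelled deletion.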

How the data were processed

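The deposited values are raw intensities per probe and channel, from NimbleScan 2.2.34 according to the headers, without background correction or normalization. No saturated probe lay in the stretch. No source used here names the build of the probe positions. From the intensities, log2(cDNA/input) was centred on each array's median, with no loess or quantile step, and averaged over 5 kb windows with at least 8 probes. Contrasts were fitted by limma 3.58.1 under R 4.3.3 (lmFit and eBayes, 3 group means, all 5 arrays, 2 residual degrees of freedom), with Benjamini-Hochberg adjustment over 15383 windows and a threshold of 0.05. The test was tried on simulated data, but the outcome is not reported here and lends the p-values no support. The labels name no separate cultures for replicate arrays. The p-values therefore measure array-to-array spread alone, possibly technical, and precision is limited by the number of arrays.

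Alternatives were normexp (offset 50), quantile normalization, loess (span 0.3), the cDNA channel alone, removal of the 10% of probes lowest in input, the median of probes, 1 kb windows with at least 4 probes, each array left out, with or without normexp, eBayes with a trend, and a fit of only the groups compared. Leaving out the brightest probe of a window, by the mean over 5 arrays, and the trained placing were added after seeing the data. Windows were named when called in a contrast as deposited, after normexp or after quantile normalization, when high in a group, when among the 3 highest of a group, or when among the 2 largest differences per contrast and direction. Genes were named from placed windows, from GENCODE vM1. A gene of the list looked up there is not reported here. The trained placing used the input of MEFF polyA array 1 and weights from 54 of 107 blocks elsewhere, with a correlation of 0.607 between predicted and measured input over 12774 probes. The members and lists were chosen with earlier results of these data known.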

Additional observations from a re-analysis of the deposited data

How the results depend on the processing

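Between total and polyA RNA, the count of called windows was 0 as deposited, 1 after normexp, 3 after quantile normalization, 0 to 14 with each array left out and 0 to 3 with normexp as well. The highest of these came without MEFF polyA array 1. Between MEFB and MEFF polyA RNA it was 0, 8 after normexp, 10 after quantile normalization, 1 after loess, 3 with a trended prior, 0 to 22 with each array left out and 3 to 14 with normexp as well. The highest as deposited came without MEFF polyA array 1, where the spread came from the total RNA pair alone. Shares over all windows are not given for these settings, so the counts show only how the calls depend on the processing. High windows in MEFF total RNA numbered 3, and 1 with the cDNA channel alone, 1 at the 95th percentile and 12 of 140 at 1 kb. In MEFF polyA RNA they numbered 4, and 2 without low-input probes, 2 without the brightest probe of a window, 0 at the 95th percentile and 7 at 1 kb. In MEFB they numbered 1, and 0 with the cDNA channel alone, 0 without the brightest probe, 0 at the 95th percentile and 5 at 1 kb. The mean level of the stretch, 0.028 in total RNA, was 0.39 after normexp, 0.27 with cDNA alone, 0.04 with medians and -0.065 without low-input probes. In MEFF polyA RNA it was 0.10, then 0.42 after normexp, 0.34 with cDNA alone and -0.012 without low-input probes. In MEFB it was -0.16, then -0.05, 0.20 and -0.31. The count of placed blocks was 0 of 4, 1 with the input of MEFF polyA array 1, 0 with that of each other array, and 13 of 49 with trained weights.

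Of 474 values of 28 window differences under the alternatives, 360 had the sign and the call of the main value, 92 gained a call and 22 changed sign. For total minus polyA RNA these were, after quantile normalization, 0.02 at 12275000 and 0.048 at 12350000. At 12450000 it was 0.082 with cDNA alone. At 12470000 it was -0.016 without low-input probes, and -0.017 without MEFF total array 2, and -0.032 and 0.045 without polyA array 1 or 2. At 12670000 it was 0.033 with medians. With normexp without MEFF total array 2 it was 0.032 at 12275000 and 0.047 at 12350000. Without MEFF polyA array 1 or 2 the values ran from -0.41 to 0.034 at 12275000, -0.34 to 0.099 at 12345000, -0.18 to 0.097 at 12350000 and -0.25 to 0.047 at 12365000. With normexp and without polyA array 2 these windows gave 0.15, 0.27, 0.13 and 0.006, and the window from 12450000 gave 0.083. For MEFB minus MEFF polyA RNA they were -0.019 (quantile), -0.027 (without low-input probes) and -0.039 (normexp without polyA array 2) at 12470000, and 0.034 at 12385000 with cDNA alone. The cause of these changes was not tested. No paired analysis was possible because the numbers of the replicates come from accession order and pair no arrays. Signal over background limits all low levels: the brightest cDNA probes (99th percentile) reached 5.33 to 22.4 times the median of their array.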
